A study of Mus musculus with 8 samples.

Results

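The genes that encode the transcription factor AP-1 and its immediate early companions were followed in TGF-β-treated primary murine cardiac fibroblasts. They were found by their symbols in the deposited table and were 10 of its 22274 genes: the FOS family (Fos, Fosb, Fosl1, Fosl2), the JUN family (Jun, Junb, Jund), Egr1 and Egr2 of the EGR family, and the small MAF gene Maff. RNA was sequenced from 4 libraries labelled GFP, the control arm that the study calls empty vector, and 4 libraries labelled OEIRF7, for overexpression of the interferon regulatory factor IRF7. Every library came from mouse heart fibroblasts that had received TGF-β, so the control arm carried both a vector and the cytokine, and cells without TGF-β were not part of this comparison. The labels give neither the mouse strain nor the dose, and do not say whether replicates were separate cultures. P-values therefore measure only the spread between these libraries, which may be technical. The paper gives a TGF-β dose and describes treatment for a day, so these are not levels within minutes of adding the cytokine. The comparison asks how the AP-1 genes differed in RNA level between the libraries labelled OEIRF7 and those labelled GFP.

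AP-1 is a dimer of basic leucine zipper (bZIP) proteins. A JUN protein pairs with another JUN protein or with a FOS protein, whereas FOS proteins do not form stable homodimers, and the pairs bind a short palindromic DNA element known as the TRE. Most of these genes are immediate early genes, which are transcribed within minutes of a growth factor, cytokine or stress signal without new protein synthesis, through serum response factor (SRF), its ternary complex partners and MAP kinases. In fibroblasts, AP-1 is known for driving proteases, chemokines and growth factors, and JUN proteins cooperate with SMAD proteins in the response to TGF-β.

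Libraries held 24454801 to 28658826 counts, and the factors of TMM scaling lay between 0.989 and 1.01. Of the genes tested for a difference (13533 after a filter on low counts), 58.9% passed an adjusted p of 0.05 in edgeR's quasi-likelihood test. Those called higher under the label OEIRF7 made up 29.0% of all tested genes and those called lower 29.9%. The study's own fold lines, over 1.5 and under 0.66, left 9.26% called higher and 9.35% called lower. The median log2 fold change of all tested genes was 0.0015. Mouse Irf7 itself went against the label, from 118 ± 24.0 CPM (counts scaled to library size; mean ± SD, n = 4, as for all values below) in the libraries labelled GFP to 15.2 ± 0.82 in those labelled OEIRF7 (log2 fold change −2.96, SE 0.12, adjusted p 7.7e-11). Phrf1 overlaps Irf7 on the opposite strand, with 1977 to 2323 counts a library, and did not pass the test (log2 fold change −0.09, adjusted p 0.058). The study's text names an adenovirus and the deposited description an adeno-associated virus. The study's reagent list holds an adenovirus with human IRF7, whose reads were not analysed here and which the mouse gene does not measure. It also holds an adeno-associated virus with mouse Irf7, which the paper describes for injection into mice and whose transcript the mouse gene could count. Which vector these libraries received, and whether the labels are exchanged, cannot be told from these values. Each direction below is therefore given as a direction between labels. The library labelled OEIRF7 replicate 3 stood somewhat apart, with chi-square values per degree of freedom of 6.21 to 8.67 against its replicates, compared with 2.69 to 5.91 for all other pairs within a group.

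Of the 10 AP-1 and immediate early genes, 9 were called higher under the label OEIRF7 and 0 were called lower, where 29.0% of all tested genes were called higher. The largest rise was that of Fosl1 (4.63-fold), followed by Egr2 (3.07-fold), Fosb (2.92-fold) and Junb (2.65-fold), and the gene that did not pass the test was Fosl2. The 1.5-fold line was also passed by 7 members (and by 9.26% of all tested genes), the exceptions being Jun, Jund and Fosl2. Of the 7, Fos passed most narrowly, at 1.525-fold. It lay under the line in some alternatives, as without OEIRF7 replicate 2 (log2 fold change 0.55). All 10 passed the filter on low counts, and their median log2 fold change was 0.96. In 9 members the lowest library labelled OEIRF7 lay above the highest library labelled GFP, as it did in 26.8% of all tested genes. For each of these 9, permuting the labels of the libraries (exact, two-sided, on log2 CPM) gave p = 0.029, the smallest that 4 against 4 libraries can give.

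**Figure D1:**
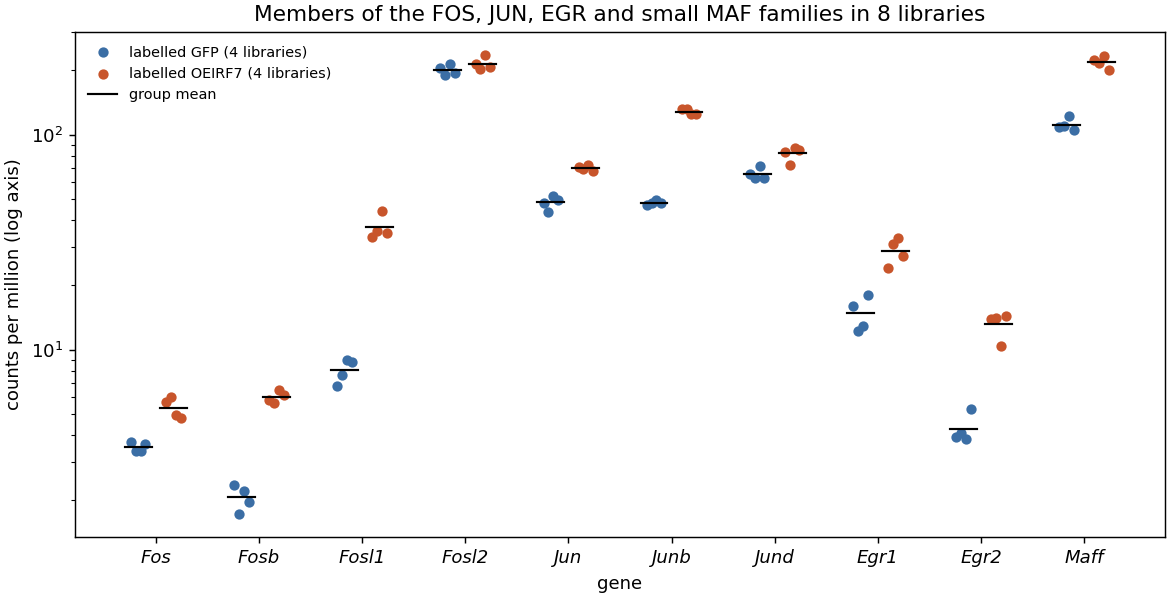
Level of each member in CPM, counts scaled to library size (log axis), in the 4 libraries labelled GFP (blue) and the 4 labelled OEIRF7 (orange), with the group mean as a black line. The groups are separate for 9 genes, and only the Fosl2 points overlap, at 190 to 214 against 202 to 235.

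Fosl1 encodes FRA-1, a FOS protein without the strong activation domain of FOS that accumulates in cells with sustained ERK signaling (ENSMUSG00000024912; GRCm38 chr19:5447547-5455946, plus strand, 4 exons, counted here and below in the longest GENCODE transcript). Its CPM were 6.76, 7.65, 8.95 and 8.73 in the libraries labelled GFP. They were 33.5, 35.8, 44.2 and 34.99 in those labelled OEIRF7. Every library of the second group held at least 33.5, far above the highest value of the first, and the log2 fold change was 2.21 (SE 0.10, adjusted p 2.2e-10), rank 137 of all 13533 tested genes when sorted from the largest rise. Without OEIRF7 replicate 3, which had the highest Fosl1 value, it was 2.12. Ccdc85b lies on the opposite strand within the annotated span of Fosl1 and rose by a log2 fold change of 0.37, with 282 to 410 counts a library. The strand setting of the counting is not given in the sources used here, so reads of overlapping antisense genes cannot be told apart.

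Fosb (ENSMUSG00000003545; chr7:19302696-19310051, minus strand, 4 exons) and Fos (ENSMUSG00000021250; chr12:85473890-85477273, plus strand, 4 exons) encode the FOS proteins with strong activation domains, and both are classic serum-response genes. They were the members with the fewest reads. Fosb had 43 to 63 counts in the libraries labelled GFP and 150 to 166 in those labelled OEIRF7, or 2.35, 1.72, 2.19 and 1.95 CPM against 5.82, 5.62, 6.52 and 6.12 CPM. Its groups lay well apart (log2 fold change 1.55, SE 0.13, adjusted p 1.2e-07). Fos had 83 to 100 counts in the first group and 118 to 175 in the second, or 3.73, 3.37, 3.36 and 3.62 CPM against 5.70, 6.03, 4.95 and 4.79 CPM. The groups of Fos did not overlap but lay closer, and its log2 fold change of 0.61 (SE 0.12, adjusted p 4.7e-04) had a 95% interval of 0.35 to 0.86, which includes the 1.5-fold line.

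Fosl2 (ENSMUSG00000029135; chr5:32135801-32157842, plus strand, 4 exons) encodes FRA-2, the other FOS protein with a weak activation domain, whose transgenic overexpression is known to cause organ fibrosis in mice. It was the FOS gene with the most reads in all 8 libraries. Its CPM were 205, 190, 214 and 194 in the libraries labelled GFP and 214, 202, 235 and 207 in those labelled OEIRF7. These ranges overlapped, the log2 fold change was 0.10 with a 95% interval of −0.01 to 0.20 (SE 0.05, adjusted p 0.11), and the exact two-sided permutation test gave p = 0.2. A change larger than about 0.20 on the log2 scale lay outside that interval. The call depended on the setting: with library size alone as the scaling, Fosl2 was called higher (log2 fold change 0.12, adjusted p 0.039), as it was without GFP replicate 3 (0.13, adjusted p 0.044).

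Junb, Jun and Jund encode the obligate AP-1 partners, of which JUN is the strong activator, JUNB a weaker one that can restrain JUN, and JUND the form found at steady levels in quiescent cells. Junb (ENSMUSG00000052837; chr8:84974484-84978718, minus strand, 1 exon) had 47.0, 48.2, 49.9 and 48.2 CPM in the libraries labelled GFP. It had 131, 132, 125 and 125 CPM in those labelled OEIRF7. With coefficients of variation of 2.46% and 2.79%, it was the least variable member in both groups, and its log2 fold change was 1.41 (SE 0.04, adjusted p 1.2e-12). Prdx2 overlaps Junb on the opposite strand and rose by 0.18 on the log2 scale, with 4293 to 5569 counts a library.

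Jun (ENSMUSG00000052684; chr4:95049034-95052222, minus strand, 1 exon) rose by less. Its CPM were 48.3, 43.7, 51.8 and 49.9 against 70.8, 69.0, 72.5 and 67.8, without overlap, and its log2 fold change was 0.53 (SE 0.05, adjusted p 3.6e-07), or 1.45-fold. Jund (ENSMUSG00000071076; chr8:70698949-70700616, plus strand, 1 exon) had the smallest rise among the called members. Its CPM were 66.0, 63.0, 71.3 and 62.7 against 83.5, 72.7, 86.9 and 85.0. The lowest library of the second group, OEIRF7 replicate 2, was only just above the highest of the first, and the log2 fold change was 0.32 (SE 0.06, adjusted p 2.3e-04). Jun and Jund have annotated antisense genes, Junos and Gm11175, which were not used here.

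Egr2 and Egr1 encode zinc finger factors of the same immediate early wave, which bind a GC-rich element and whose activity is held back by the co-repressors NAB1 and NAB2. Egr2 (ENSMUSG00000037868; chr10:67535475-67542188, plus strand, 2 exons) had 3.92, 4.09, 3.85 and 5.30 CPM in the libraries labelled GFP. It had 14.0, 14.0, 10.4 and 14.3 CPM in those labelled OEIRF7. GFP replicate 4 was high and OEIRF7 replicate 3 was low within their groups, yet the groups stayed apart (log2 fold change 1.62, SE 0.13, adjusted p 5.3e-08), and without either of those libraries in turn the value was 1.74 or 1.71. Egr1 (ENSMUSG00000038418; chr18:34859823-34864984, plus strand, 2 exons) had 16.05, 12.2, 12.9 and 18.04 CPM against 23.9, 30.9, 33.2 and 27.2 CPM. It varied the most among the members, with coefficients of variation of 18.5% and 14.2%, and its log2 fold change was 0.96 (SE 0.12, adjusted p 7.2e-06).

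Maff (ENSMUSG00000042622; chr15:79346621-79359076, plus strand, 3 exons) encodes a small MAF protein, a bZIP factor without an activation domain that pairs with itself, with FOS and with NRF proteins. It had 109, 109, 123 and 105 CPM in the libraries labelled GFP and 222, 216, 232 and 200 CPM in those labelled OEIRF7. These groups lay far apart (log2 fold change 0.96, SE 0.05, adjusted p 1.1e-09). Its small MAF relatives Mafk and Mafg rose by less, by log2 fold changes of 0.21 and 0.18 (adjusted p 2.9e-04 and 0.0025).

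**Figure D2:**
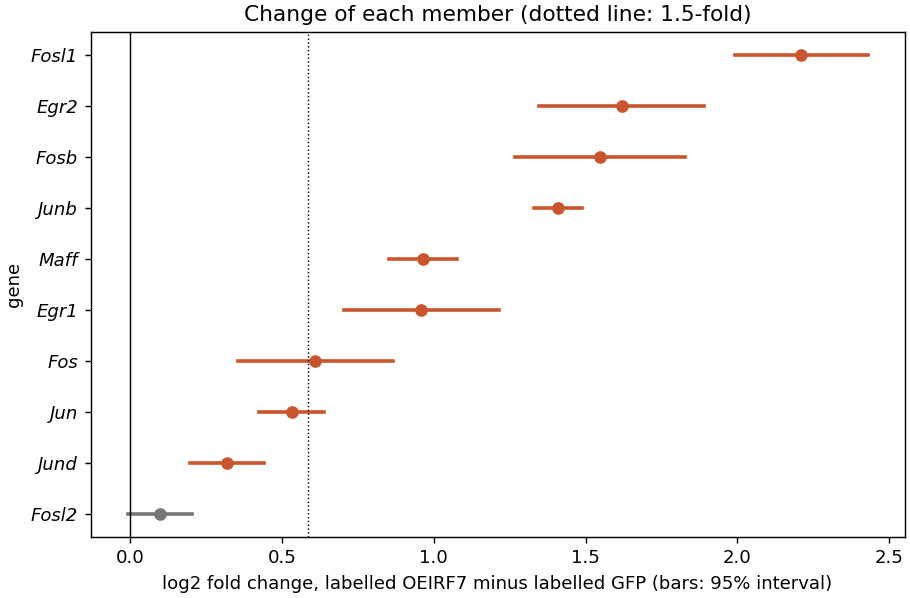
Log2 fold change of each member between the libraries labelled OEIRF7 and those labelled GFP (4 against 4), with 95% intervals as bars. Orange genes passed an adjusted p of 0.05 and grey Fosl2 did not, and the dotted line marks 1.5-fold, which the intervals of Fos and Jun include.

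Levels of different genes were set side by side as FPKM, which the authors normalized for gene length and depth. In the libraries labelled GFP the order of mean FPKM was Maff (57.2), Jund (39.1), Fosl2 (30.4), Junb (26.5), Jun (15.0), Egr1 (4.32), Fosl1 (4.26), Egr2 (1.67), Fos (1.65) and Fosb (0.70). Of these neighbours, Egr1 and Fosl1 overlapped in their ranges over libraries (3.56 to 5.30 and 3.59 to 4.76), as did Egr2 and Fos. In the libraries labelled OEIRF7 the order was Maff (114), Junb (71.6), Jund (49.7), Fosl2 (33.1), Jun (22.1), Fosl1 (20.2), Egr1 (8.67), Egr2 (5.31), Fos (2.57) and Fosb (2.19). Junb thus stood above Jund and Fosl2 in the second group and below both in the first, while Fosl1 overlapped with Jun in the second group (18.2 to 24.4 and 21.4 to 22.8 FPKM). Fos and Fosb overlapped there too (2.29 to 2.90 and 1.80 to 2.63 FPKM), with Fosb above Fos in OEIRF7 replicate 3.

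The make-up of the FOS family differed between the groups. The summed FPKM of its 4 genes was 37.0 ± 1.82 in the libraries labelled GFP and 58.1 ± 4.84 in those labelled OEIRF7. Fosl2 made up 80.3% to 83.4% of this sum in the first group and 55.1% to 59.2% in the second, its own mean level being 30.4 and 33.1 FPKM. The share of Fosl1 was 9.68% to 12.7% and then 32.4% to 37.3%, and that of Fosb 1.45% to 2.39% and then 3.28% to 4.20%, without overlap. Fos held 4.01% to 4.72% and 3.60% to 5.18%, which overlapped. FRA-1 and FRA-2 transcripts together thus made up most of the FOS family RNA in both groups.

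In the JUN family the summed FPKM was 80.6 ± 3.70 in the libraries labelled GFP and 143 ± 3.05 in those labelled OEIRF7. Junb held 31.9% to 34.1% of it in the first group and 48.1% to 52.7% in the second, becoming the member with the largest share in every library labelled OEIRF7. Jund held 47.1% to 49.4% and then 31.6% to 36.2%. Jun held 17.5% to 19.6% and then 15.0% to 15.8%, so that its share was lower in the group in which its own level was higher. These shares are of RNA and were not tested, since a share over chosen genes carries no p-value here.

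**Figure D3:**
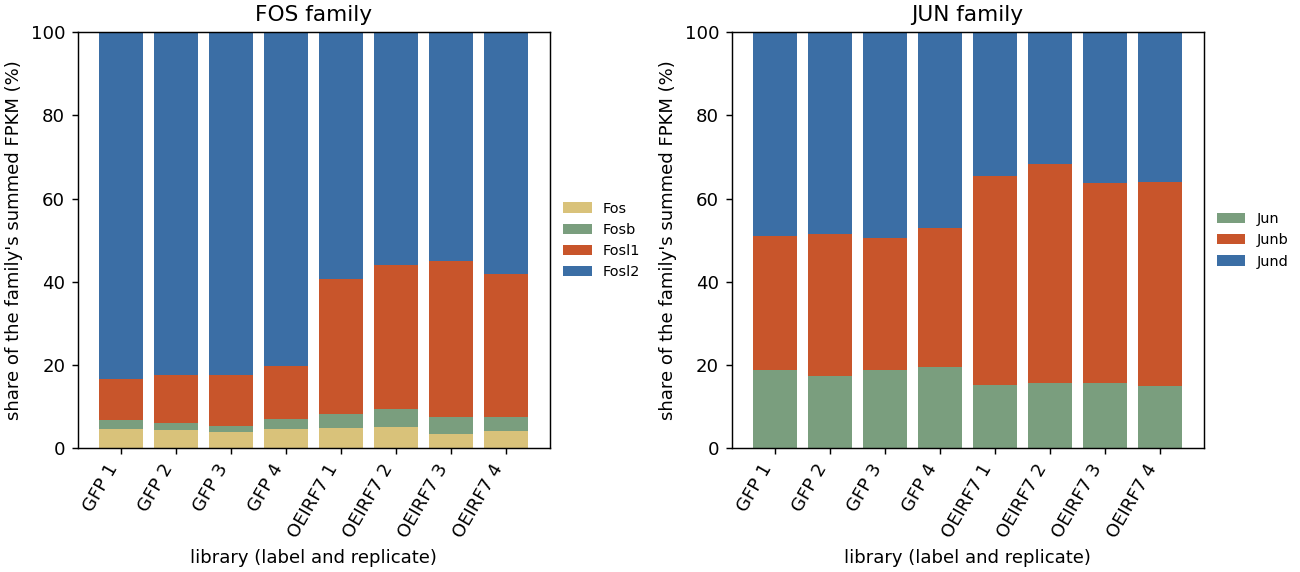
Share of each gene in the summed FPKM of the FOS family (left) and the JUN family (right), with a stacked bar for each library. Fosl1 takes 32.4% to 37.3% of the FOS family in the libraries labelled OEIRF7 against 9.68% to 12.7% in those labelled GFP, and Junb 48.1% to 52.7% of the JUN family against 31.9% to 34.1%.

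To show what precedes members that rose together, promoter stretches from RefSeq (GRCm38.p6) are given for 4 of them, with a site from Egr2. An entry was matched for 8 of the 10 members, and not for Fosl1 or Egr1. The 250 bases before each annotated start were searched on both strands for the TRE (TGACTCA), the CRE (TGACGTCA), the core of the CRE alone (TGACG, which every CRE also holds), the TRE variant of the Jun promoter (TGACATCA), the EGR element (GCGTGGGCG), an IRF-type element (GAAANNGAAA) and the CArG box, which SRF binds. The motifs were chosen with the results known. Capitals mark the matches, and each stretch of 150 bases ends at the base before the start. In the Egr2 site capitals mark the CArG box alone, although its last bases are part of a TGACG match on the minus strand. That site lies before the third listed start of Egr2. Another CArG box (CCTTTTTTGG), at −72 of its second listed start, is not printed.
Fos, chr12:85473740-85473889, plus strand: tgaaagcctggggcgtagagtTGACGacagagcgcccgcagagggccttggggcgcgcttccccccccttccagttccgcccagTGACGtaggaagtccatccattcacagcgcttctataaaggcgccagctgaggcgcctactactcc
Jun, chr4:95052223-95052372, minus strand: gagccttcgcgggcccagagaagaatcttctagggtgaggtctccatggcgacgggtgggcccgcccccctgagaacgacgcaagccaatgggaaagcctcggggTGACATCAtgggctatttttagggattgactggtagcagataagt
Junb, chr8:84978749-84978898, minus strand: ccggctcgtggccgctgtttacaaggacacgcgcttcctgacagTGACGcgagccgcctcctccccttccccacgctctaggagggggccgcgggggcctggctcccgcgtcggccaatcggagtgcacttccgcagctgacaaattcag
Maff, chr15:79347370-79347519, plus strand: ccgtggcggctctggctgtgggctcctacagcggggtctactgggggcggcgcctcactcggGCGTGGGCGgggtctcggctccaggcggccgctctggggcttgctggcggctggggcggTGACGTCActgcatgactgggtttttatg
Egr2, 30 bases around its CArG box, chr10:67537787-67537816, plus strand: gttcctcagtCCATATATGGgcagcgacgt

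The core TGACG was found in 5 of the 8 members (Fos, Fosb, Junb, Egr2 and Maff) and in 17.8% of all 32851 promoter windows. In Fos it began at −129 and −66, in Fosb at −60 and in Junb at −106, counted back from the start. A full CRE was found in Maff, at −29 of its second listed start, and in 1.55% of all windows. The same Maff window held the EGR element at −88, which 0.536% of all windows held. The TRE variant TGACATCA was found in Jun, at −45, and in another Maff window, against 2.93% of all windows. Of the members searched, the CArG box was found in Egr2 alone, and in 1.47% of all windows. For every motif, bases further than 250 before a start were not searched, nor were Fosl1 and Egr1. A motif that was not found may therefore lie outside the windows. The IRF-type element was found in Fosl2, the member that was not called, at −221 on the minus strand, and in 2.98% of all windows. This Fosl2 window, chr5:32136222-32136471, lies inside the gene, past its GENCODE start at 32135801, and overlaps an annotated Fosl2 exon. The bases just before the GENCODE start of Fosl2 were not searched. The TRE itself, present in 4.46% of all windows, matched 0 of the 8 members, which says only that these letters are not in the windows searched. The Jund window, chr8:70697489-70697738, lies well upstream of the GENCODE start of Jund at 70698949. The bases just before that start were therefore not searched. Egr2 has 5 listed starts and Maff 3, against 1 for each of the other 6 members, so these genes, which hold the CArG box, CRE and EGR matches, had more windows than 1 in which to match, while the shares over all promoters are per window.

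Genes known to respond to AP-1 in fibroblasts and other cells also differed between the groups. Of 33 tested genes of such a list, 27 were called higher and 3 lower, with a median log2 fold change of 1.04 against 0.0015 over all tested genes, and 21 passed the 1.5-fold line upward. Over all tested genes 29.0% were called higher, 29.9% lower and 9.26% higher past that line. The list was chosen with earlier results of these data known, so its counts are not independent support. Among the matrix metalloproteinase genes, Mmp9 went from 0.18 ± 0.14 to 11.2 ± 2.19 CPM (log2 fold change 5.89, adjusted p 2.4e-10) and Mmp13 from 1.74 ± 0.26 to 60.1 ± 15.5 CPM (5.11, adjusted p 4.4e-11). Mmp9 had as few as 2 counts in a library labelled GFP, so the size of its change rests on very low values. Mmp10 rose from 9.83 ± 1.39 to 73.2 ± 11.4 CPM (2.90). A pair of chemokine genes rose as well, Cxcl1, whose product attracts neutrophils, from 2.15 ± 0.22 to 19.99 ± 4.99 CPM (3.21), and Ccl2, whose product attracts monocytes, from 37.8 ± 2.37 to 333 ± 42.2 CPM (3.14). The 3 genes called lower were Fst (follistatin; −0.95), Edn1 (endothelin; −0.52) and Ccnd1 (cyclin D1; −0.47). The 3 that did not pass the test were Il6 (−0.05, adjusted p 0.73), Lif (−0.0016, adjusted p 0.99) and Dcn (−0.02, adjusted p 0.67).

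Other immediate early genes were called higher in 20 of 30 tested cases and lower in 3, against 29.0% and 29.9% of all tested genes, with a median log2 fold change of 0.60. Arc, a synaptic gene of the same wave, went from 1.99 ± 0.11 to 9.17 ± 1.84 CPM (2.20, adjusted p 1.2e-08). Ier3, which modulates ERK signaling and survival, went from 74.8 ± 13.3 to 211 ± 46.5 CPM (1.496). Errfi1, a feedback inhibitor of the EGF receptor, went from 36.0 ± 2.56 to 93.9 ± 7.58 CPM (1.38), and Gadd45a, a growth arrest gene, from 12.6 ± 1.13 to 31.7 ± 1.69 CPM (1.33). The genes called lower were Gadd45g, from 108 ± 13.1 to 40.1 ± 4.59 CPM (−1.42, adjusted p 3.9e-09), Gadd45b (−0.60) and Zfp36 (−0.28), the last encoding a protein that promotes decay of AU-rich mRNAs. The 3 GADD45 genes thus did not move in the same direction. Of the EGR co-repressors, Nab2 rose (0.64, adjusted p 9.7e-07) and Nab1 did not pass the test (0.01, adjusted p 0.82). The orphan receptor genes Nr4a1, Nr4a2 and Nr4a3, which often rise with Fos, had log2 fold changes of 0.25, 0.04 and 0.49 and did not pass the test (adjusted p 0.11, 0.88 and 0.060).

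Other genes of the bZIP class, of which only some encode proteins that can pair with FOS or JUN, were divided. Of 26 tested, 10 were called higher, 6 lower and 10 did not pass, with a median log2 fold change of 0.05. These shares are near the 29.0% and 29.9% of all tested genes that were called higher and lower. Cebpb, a driver of inflammatory genes, rose from 11.0 ± 0.69 to 24.7 ± 0.39 CPM (1.17, adjusted p 8.5e-10). The stress-induced Atf3 rose from 10.01 ± 0.84 to 16.9 ± 1.09 CPM (0.75), Nfe2l2, which encodes the oxidative stress factor NRF2, from 106 ± 6.33 to 166 ± 4.24 CPM (0.64), and Crem from 10.9 ± 0.99 to 15.6 ± 2.77 CPM (0.52). Cebpd fell from 31.5 ± 1.42 to 23.5 ± 4.76 CPM (−0.42, adjusted p 0.0034).

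Genes upstream of the immediate early wave changed in both directions. Of 8 tested genes of SRF and its cofactors, 3 were called higher and 4 lower, with a median log2 fold change of −0.08. Of all tested genes, 29.0% were called higher and 29.9% lower. Srf itself was called lower (−0.23, adjusted p 0.0034), as were Fhl2 (−0.48), Mrtfb (−0.19) and Myocd (−0.87), and Elk4 (0.46), Elk3 (0.21) and Mrtfa (0.14) were called higher. Elk1 did not pass the test (0.02, adjusted p 0.74). The call of Srf was lost when limma was run on FPKM (adjusted p 0.23). Of 30 tested kinases of the ERK, JNK and p38 cascades, 11 were called higher, 12 lower and 7 did not pass, with a median log2 fold change of −0.07. Both shares are not far from those over all tested genes, 29.0% called higher and 29.9% called lower. Mapk11, which encodes p38β (1.05), Map3k8 (0.83), Map2k1, which encodes MEK1 (0.69) and Map2k3 (0.65) were called higher, and Braf was called lower, from 91.6 ± 2.62 to 54.1 ± 1.24 CPM (−0.76, adjusted p 3.9e-10). These are RNA levels, and kinase activity was not measured in these files.

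**Figure D4:**
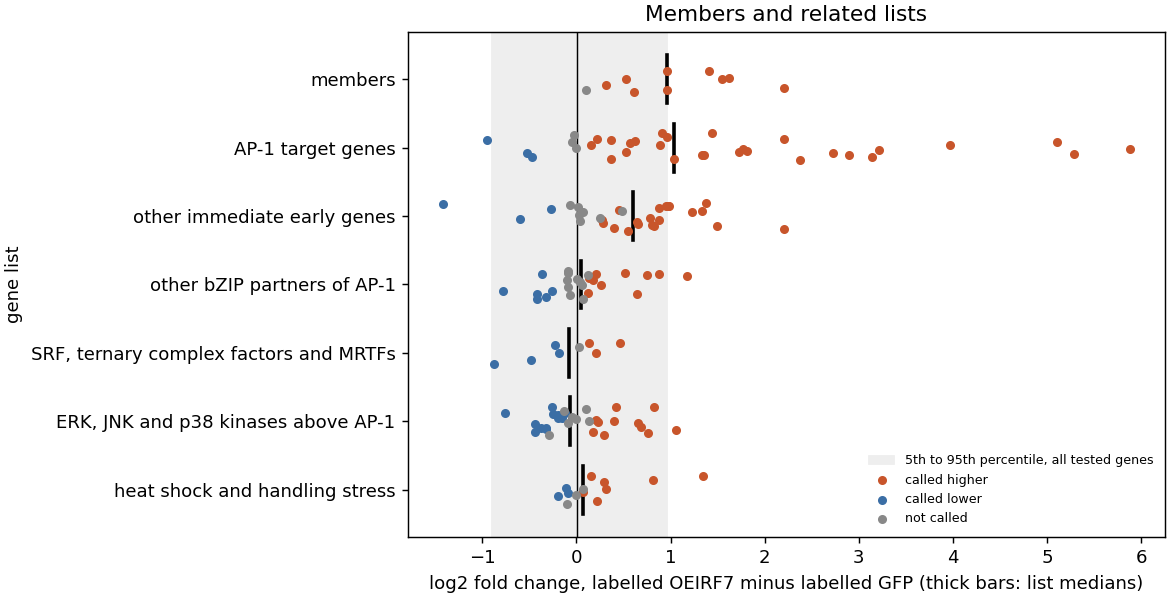
Log2 fold change of each tested gene of the members and 6 related lists, coloured by its call (orange higher, blue lower, grey not called), with list medians as thick bars. The grey band spans the 5th to the 95th percentile of all tested genes, −0.90 to 0.96, and the medians of the members (0.96) and of the AP-1 target genes (1.04) lie at or beyond its upper edge. Members and lists were chosen with earlier results of these data known.

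Immediate early genes can also respond to handling of the cells, and heat shock genes were read beside them. Of 13 tested, 7 were called higher, 3 lower and 3 did not pass, with a median log2 fold change of 0.07. Of all tested genes, 29.0% were called higher and 29.9% lower. Hspa1a went from 17.7 ± 2.27 to 45.2 ± 9.92 CPM (1.35, adjusted p 4.0e-07), Hsp90aa1 (0.32), Dnajb1 (0.22) and Hspd1 (0.15) were called higher by less, and Bag3 (−0.20), Dnaja1 (−0.09) and Hspb1 (−0.11) were called lower. Hspa1a and Hspa1b (0.81) are near-identical copies whose reads can be split between them, so each of their values is uncertain. Hspa8, Dnajb4 and Hspe1 did not pass (−0.0031, −0.10 and 0.07; adjusted p 0.92, 0.11 and 0.39). Summed over the list, CPM were 5320 to 5550 in the libraries labelled GFP and 5717 to 6100 in those labelled OEIRF7, and the part of handling in the members' rise was not tested.

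The labelled cell type was checked against its markers. Fibroblast markers were abundant in all libraries, with a summed level of 30200 to 31690 CPM in the libraries labelled GFP and 27240 to 29320 in those labelled OEIRF7. Of 13 such markers, 2 were called higher (Pdgfra and Vim) and 8 lower, among them Tcf21 (−1.33) and Postn (−0.38). For this and the cell types below, the shares over all tested genes were 29.0% called higher and 29.9% called lower. Vim and Dcn also stand in the list of AP-1 targets. Of 10 cardiomyocyte markers only Tnnt2 passed the filter on low counts (11.3 and 7.78 CPM), and the myosin gene Myh6 had at most 1 count in any library. The cardiomyocyte list summed to 9.99 to 13.7 and 7.62 to 9.81 CPM. Macrophage markers summed to 299 to 356 CPM in the first group and 387 to 430 CPM in the second. Of these 10, 6 were called higher (Itgam, Cd14, Mrc1, Adgre1, Lyz2 and Cd68) and 0 lower, while Ptprc, Csf1r, C1qa and C1qb did not pass, and none was at 0. Endothelial markers summed to 247 to 257 and 249 to 278 CPM, with 4 of 10 called higher, 1 lower and none at 0. Mural cell markers summed to 125 to 139 and 108 to 131 CPM, with 3 of 7 tested called higher and 3 lower. Higd1b had at most 3 counts in any library. Epicardial and mesothelial markers summed to 152 to 159 and 106 to 120 CPM, with 2 of 7 tested called higher and 2 lower, and Wt1 was below 1 CPM. Macrophages and endothelial cells express AP-1 genes too, and the part of the 6 macrophage and 4 endothelial markers called higher in the members' rise was not tested. The ranges of the summed endothelial level overlapped between the groups, and those of the summed macrophage level did not. In bulk RNA, more cells of a type cannot be told apart from more RNA per cell.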

How the data were processed

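RNA-seq of primary murine cardiac fibroblasts, 4 libraries labelled GFP and 4 labelled OEIRF7, was analysed. Per the paper's methods, reads were trimmed with Trimmomatic and mapped with HISAT2 to GRCm38; the authors deposited raw read counts per gene from HTSeq-count. The FPKM values that the authors deposited came from Cufflinks and are normalized for gene length and depth. Tool versions and the strand setting are not given in the sources used here, and the kits for extraction and libraries differ between the labels and the paper. Deposited group means, fold changes, p-values and FDR belong to the authors' own comparison and were not used. Of the gene symbols, 121 that hold the letters GFP in place of others were restored by identifier.

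The count model was edgeR 4.0.16 (R 4.3.3): filterByExpr by group, TMM scaling, glmQLFit and glmQLFTest without covariates, and Benjamini-Hochberg adjustment over the 13533 genes tested. Calls needed an adjusted p under 0.05. Permutation tests used log2 CPM with a prior count of 2. Alternatives were DESeq2 1.42.0, limma 3.58.1 on log2 FPKM with pseudocounts of 1 and 0.1 (genes averaging over 0.1 FPKM), other scalings and filters, the replicate number as a block, and each library left out. The scripts were tested on simulated data. Coordinates came from GENCODE M21. Named genes are all 10 members and Irf7 and, from each related list, up to 5 called genes averaging over 5 CPM, with separate groups and the largest change; genes in counts of 5 or fewer, Nab1, Nab2, Mafk, Mafg, the NR4A genes, Hspa1b, overlapping genes and cell type markers were named after their values were seen. The members and lists were chosen with earlier results of these data known. Depth was 24454801 to 28658826 counts a library.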

Additional observations from a re-analysis of the deposited data

Results flagged for a closer look

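Among 41 named genes in 2 groups each (82 sets of 4 libraries), 6 held a library whose gap to the nearest other library exceeded Dixon's 95% limit, and chance flags about 1 in 20 sets. Egr2 was at 5.30 CPM in GFP replicate 4, against 3.85 to 4.09 in the other libraries labelled GFP. In OEIRF7 replicate 3, Egr2 was at 10.4 CPM, against 13.96 to 14.4 in its replicates. The same library was high for Cebpb (25.3 CPM against 24.46 to 24.54), for Map2k3 (176 CPM against 152 to 154) and for Hspa1a (59.9 CPM against 38.5 to 42.1). Crem was at 12.4 CPM in GFP replicate 3, against 10.3 to 10.4. Without OEIRF7 replicate 3 the log2 fold changes were 1.71 for Egr2, 1.16 for Cebpb, 0.60 for Map2k3 and 1.18 for Hspa1a, and each of these 4 genes was still called higher. For 7 of the 10 members, OEIRF7 replicate 3 lay above the mean of its group, and 9 members were called higher without it.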

How the results depend on the processing

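Over 16 alternatives, 157 of the 160 values of the members kept their direction and their side of the threshold, 9 or 10 members were called higher and 0 lower in each, and the 3 others were of Fosl2, which became called: with library size only (log2 fold change 0.12, adjusted p 0.039), with the replicate block (0.10, adjusted p 0.011) and without GFP replicate 3 (0.13, adjusted p 0.044). The log2 fold change of Fosl2 ranged from 0.05 to 0.13 over these alternatives, that of Fosl1 from 2.01 to 2.27, that of Junb from 1.39 to 1.44, and that of Fosb from 0.90, in limma on log2(FPKM + 1), to 1.62. Genes called across the table numbered 3688 to 4346 higher and 3309 to 4154 lower. The replicate block gave 4057 higher and 4154 lower. Deviations of same-numbered libraries correlated by 0.079, 0.095, 0.138 and 0.104, each library best with its own number, which is a hint from the data and not the design, and since not all passed 0.1 the numbers were not taken as pairs. With CPM in place of FPKM, which are not per length, the change in share between the groups was 1.33 percentage points for Fosb, 10.3 for Fosl1, −12.1 for Fosl2, −4.81 for Jun and −11.2 for Jund, in place of 1.84, 23.2, −25.0, −3.21 and −13.8, while for Fos and Junb the change in share was 0.41 and 16.01 with CPM and −0.02 and 17.05 with FPKM, a difference between units within the spread between replicates. Of 495 values of Irf7 and other named genes, 493 kept direction and call, the exceptions being the limma fits of Srf on FPKM. Of 192 counts over the related lists, 186 stayed within 1.5 times, and the 6 others were the heat shock genes called lower (3, or 1). Fos and Fosb rest on 43 to 175 counts a library, which limits how well their changes are known.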
